A study of Mus musculus with 4 samples.

Results

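The ATP-binding cassette (ABC) genes outside the ATP-sensitive potassium channel were followed in insulin-positive cells made from mouse gallbladder. The members are the 47 rows of the deposited gene table, of 20377 in all, whose symbol has the form Abca to Abcg followed by a number and an optional letter. Abcc8 and Abcc9, the sulphonylurea receptor subunits of the potassium channel, were left out. The rule uses symbols and no measured value, although it was written with earlier results of these data known. 8 of the 47 are related to bile: Abcb1a, Abcb4, Abcb11, Abcc2, Abcc3, Abcg2, Abcg5 and Abcg8.

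RNA sequencing covered 1 group, rGBC2, with 4 libraries called replicates 1 to 4 here. Its cells were primary gallbladder cells of 8-week-old C57BL/6-background mice of the genotype B6.Cg-Tg(Ins1-EGFP)1Hara/J. This transgene, also called MIP-GFP, is a green fluorescent reporter under an Ins1 promoter. They were expanded in culture, reprogrammed over 10 days with 4 factors (PAX6, Mafa, Ngn3 and Pdx1) and with compounds that the labels do not name, and sorted for the reporter, so the cells were selected on an insulin promoter. The labels give neither the number of animals or cultures behind the 4 libraries nor a control group, so p-values measure only the spread between these libraries. That spread may be technical in part. Replicates 1 and 2 differ from replicates 3 and 4 in reads of Y-linked genes, so the 4 may not be independent samples.

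ABC proteins bind and hydrolyse ATP on paired nucleotide-binding domains, and most use that energy to move lipids, bile constituents, drugs, peptides or metal-containing cofactors across a membrane. In liver, transporters of the canalicular membrane build bile: Abcb11 exports bile salts, Abcb4 moves phosphatidylcholine outward, Abcc2 exports conjugated organic anions, and Abcg5 with Abcg8 exports sterols as a heterodimer. Biliary epithelium is known for basolateral Abcc3, which returns organic anions to the blood. The ABCE and ABCF subfamilies have no membrane-spanning part and act in translation, so they are members by sequence and not by transport.

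Values are RPKM, reads scaled by transcript length and by sequencing depth, a level that can be compared between genes. With 1 group, the test across genes asked which levels lay above or below 1 RPKM, in log2(RPKM + 1), with limma's moderated test. P-values were adjusted by Benjamini and Hochberg over 16919 genes, those above 0 in at least 1 library (threshold 0.05). Estimated depths were 22100000 to 33200000 reads, at which 3 reads on a transcript of 1 kilobase make 0.0904 to 0.136 RPKM. These floors cover counting error only. Among all genes tested, 65.0% lay above 1 RPKM and 26.1% below, and the marker counts that follow stand beside these shares. They were not tested as signs of a cell type. Of the marker genes listed, 5 of 6 biliary (83.3%) and 6 of 8 beta-cell genes (75%) lay above 1 RPKM. The beta-cell genes Nkx6-1 and Ucn3 lay below it. Of 8 hepatocyte markers 3 (Fgb, Serpina1a and Cyp3a11) were listed at 0 in every library and 2, Alb and Ttr, lay above 1 RPKM. No endothelial gene of 4 and no fibroblast gene of 4 lay above it, but 3 of 6 macrophage genes (Csf1r, C1qa and Cd14) and 1 of 3 smooth muscle genes (Myh11) did. The macrophage genes summed to 26.9 to 33.3 RPKM in a library, with Ptprc, the defining leukocyte gene, at 0.01 RPKM or less and Emr1 at 0. Gapdh, a glycolytic gene that nearly all cells use, read 0.2 RPKM or less and lay below 1 RPKM (limma, adjusted p = 7.81e-06). A value at or near 0 in this table, or a call below 1 RPKM, can thus be a failed estimate. Eif2s3y, a Y-linked gene, read 48.5 and 44.7 RPKM in replicates 1 and 2 but 0 in the other pair.

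Of the 47 members, 22 lay above 1 RPKM, 18 lay below it, 6 passed in neither direction, and Abca15 was listed at 0 in every library and not tested. Among all genes tested, 65.0% lay above and 26.1% below, against 47.8% and 39.1% of the 46 members tested. The median member level was 3.72, 1.91, 0.99 and 0.965 RPKM in replicates 1 to 4, against 8.22, 7.56, 6.29 and 6.01 RPKM over all genes tested. Both medians were highest in replicate 1 and lowest in replicate 4. Members spanned from Abcf1 at 64.1 ± 2.78 RPKM (SD, n = 4) to Abca13, seen only in replicate 1 at 0.02 RPKM. Each library pools many cells, so fewer cells that transcribe a gene and less RNA per cell cannot be told apart.

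**Figure D1:**
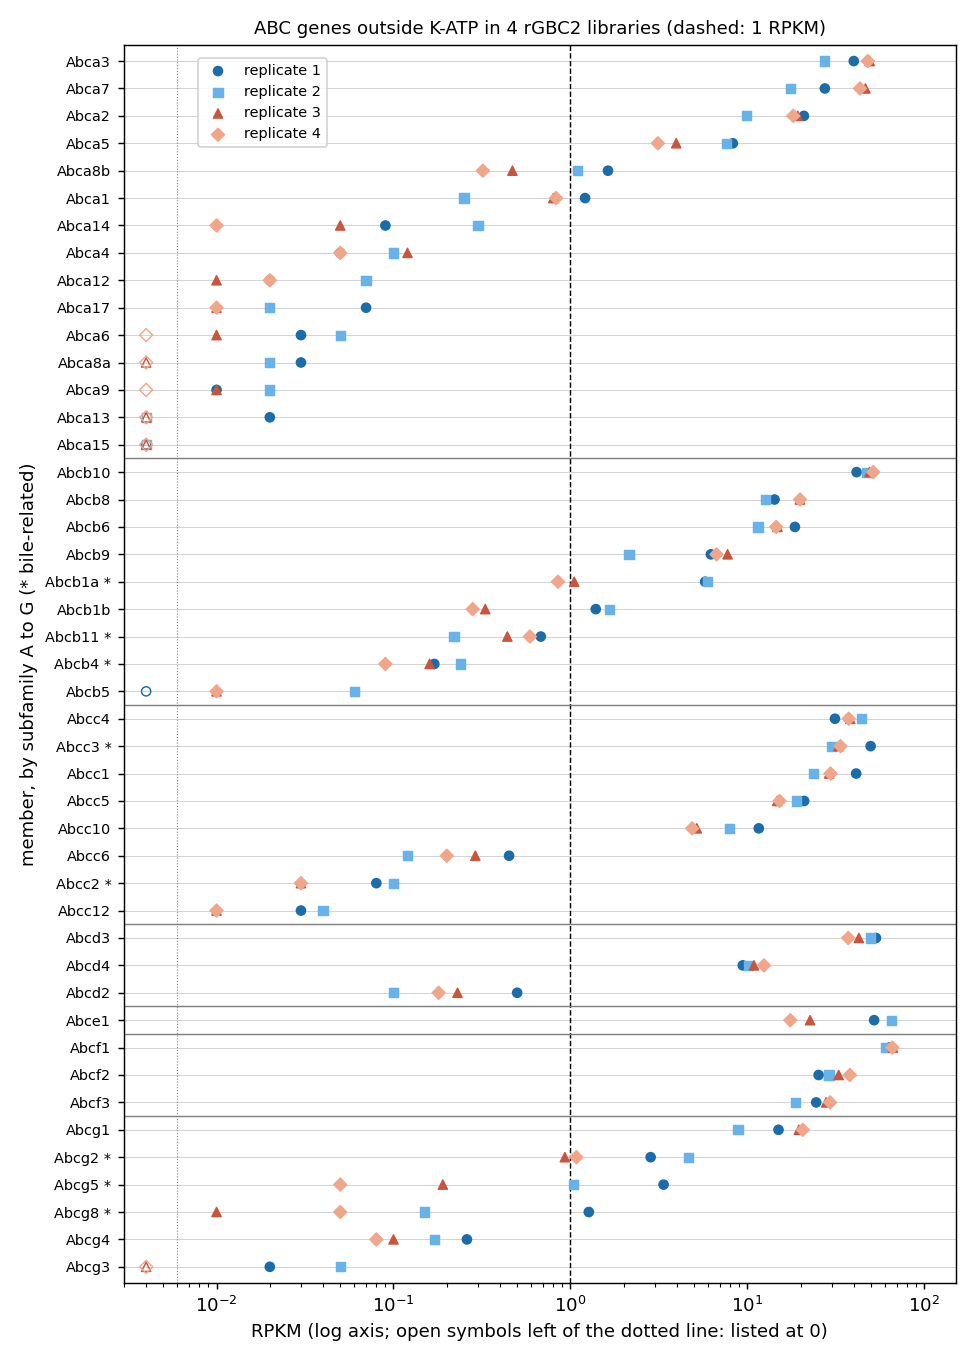
RPKM of 45 of the 47 members (rows, grouped by subfamily A to G and ordered by mean, bile-related members starred) in each of the 4 rGBC2 libraries (symbols) on a log axis, with values listed at 0 as open symbols at the left. The 3 ABCF genes and Abce1 sit above 1 RPKM in every library. Of 14 tested ABCA genes, 8 (57.1%) lay below it, against 26.1% of all genes tested.

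The 47 members summed to 611, 538, 567 and 558 RPKM in replicates 1 to 4. Abcc8 alone stood at 447, 319, 560 and 548 RPKM in the same libraries, and in replicate 3 it nearly equalled the sum of the 47. The 10 most abundant members made 69.5% to 73.2% of the members' summed RPKM. These were Abcf1, Abcb10, Abcd3, Abca3, Abce1, Abcc4, Abcc3, Abca7, Abcf2 and Abcc1, and 1 of them, Abcc3, is related to bile.

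Of the 8 bile-related members, only Abcc3 lay above 1 RPKM. 4 lay below it (Abcb11, Abcg8, Abcb4 and Abcc2) and 3 passed in neither direction (Abcb1a, Abcg2 and Abcg5). When every library was rescaled to the same, higher total, Abcb1a and Abcg2 also lay above 1 RPKM (limma, adjusted p = 0.0304 and 0.0228). The share above was 12.5%, against 65.0% of all genes tested, and the share below was 50%, against 26.1%. On the log2(RPKM + 1) scale the median of the bile-related members was lower than that of the other members tested in every library, with differences of -1.47, -1.71, -2.08 and -1.90 in replicates 1 to 4 (mean -1.79 ± 0.26, SD, n = 4). The direction was the same in 4 of 4 libraries.

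Abcc3, the basolateral organic anion exporter MRP3, lies in mm9 on chromosome 11 from 94204609 to 94254290 on the minus strand. It was measured at 49.7, 29.8, 32.7 and 33.6 RPKM in replicates 1 to 4. Replicate 1 was the highest and the other 3 lay close together. Its mean of 36.5 ± 8.98 RPKM (SD, n = 4) lay above 1 RPKM (limma, adjusted p = 1.15e-06) and above the means of 82.6% of genes tested. Abcc3 made 70.8% to 92.5% of the summed RPKM of the 8 bile-related members.

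Abcc2, the canalicular organic anion exporter MRP2, stood at 0.08, 0.1, 0.03 and 0.03 RPKM and lay below 1 RPKM (limma, adjusted p = 6.11e-07). These values correspond to an estimated 15.5, 17.7, 5.95 and 7.99 reads. Its locus is on chromosome 19 from 43856798 to 43912708 in mm9. Abcc3 exceeded Abcc2 in 4 of 4 libraries, by 298 to 1120 times as a ratio of RPKM and by 5.12 ± 0.31 (SD, n = 4) in log2(RPKM + 1). An exact two-sided permutation of the signs gave p = 0.13, which no set of 4 libraries can go below, and 0.25 after adjustment over the 8 pairs compared.

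The exporters of bile salts and of phosphatidylcholine were under 1 RPKM in every library. Abcb11, the bile salt export pump, on chromosome 2 from 69076339 to 69180673, was at 0.68, 0.22, 0.44 and 0.59 RPKM and lay below 1 RPKM (limma, adjusted p = 0.00333), a call lost after that rescaling (limma, adjusted p = 0.537) and against 0.5 RPKM (0.767). Abcb4, the phosphatidylcholine floppase, lies on chromosome 5 from 8893721 to 8959226. It was at 0.17, 0.24, 0.16 and 0.09 RPKM and also lay below 1 RPKM (limma, adjusted p = 4.7e-06). Abcb4 was lower than Abcb11 in 3 of 4 libraries and slightly higher in replicate 2, with a mean difference of -0.34 ± 0.26 in log2(RPKM + 1) (n = 4 libraries; by exact permutation of signs p = 0.25, or 0.333 adjusted). This difference concerns low levels on a scale that compresses them.

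Abcg5 and Abcg8, which pair to export cholesterol and plant sterols, are divergent neighbours on chromosome 17. In mm9, Abcg5 spans 85057574 to 85082263 on the minus strand and Abcg8 spans 85082471 to 85099673 on the plus strand, and 207 bases separate the deposited transcripts. The stretch between their starts is shown because both genes begin from it and their levels across the 4 libraries can be read side by side. It is given 5′ to 3′ on the Abcg8 strand from the RefSeq promoter table (GRCm38.p6, chr17:84683012-84683120), whose starts lie closer together than those of the deposited transcripts. Capitals mark GATAA, the core of a GATA factor site, and TATAAA, the letters of a TATA box, on either strand.
Abcg5-Abcg8: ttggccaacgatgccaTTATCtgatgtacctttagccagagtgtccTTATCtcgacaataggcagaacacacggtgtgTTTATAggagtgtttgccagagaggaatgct
The 109 bases hold 2 GATAA matches and 1 TATAAA match. The letters GATAA occur on either strand in 9.38%, and TATAAA in 5.88%, of the 109 bases before each of the 32544 promoter starts in the table. 5 other motifs were searched on both strands and have no match in this window. The GC box was searched as GGGCGG. The E-box of the kind that Neurog3 binds was searched as CAGATG. For a homeodomain core the letters were TAATTA. For an AP-1 site the letters were TGACTCA. The last was the CCAAT box, by its own letters. A match is a description of the letters only.

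Abcg5 was measured at 3.36, 1.04, 0.19 and 0.05 RPKM in replicates 1 to 4 and Abcg8 at 1.27, 0.15, 0.01 and 0.05 RPKM. Both were highest in replicate 1 and next highest in replicate 2, and replicates 3 and 4 were lower than both for each gene. Of genes with a mean of at least 1 RPKM, 41.2% were likewise higher in replicates 1 and 2. The estimated reads of Abcg8 were 113, 12.2, 0.906 and 6.09, so replicates 3 and 4 rest on a few reads. Abcg5 passed in neither direction (limma, adjusted p = 0.733), and its mean was 1.16 RPKM, or 0.427 RPKM without replicate 1. Abcg8 lay below 1 RPKM (limma, adjusted p = 0.0285), a call lost without replicate 2, 3 or 4 (limma, adjusted p = 0.108, 0.0708 and 0.0699) after that rescaling (0.267), without the variance trend (0.0556) or against 0.5 RPKM (0.35), and without replicate 1 its mean was 0.07 in place of 0.37 RPKM. Abcg5 exceeded Abcg8 in 3 of 4 libraries and equalled it in replicate 4, by 0.50 ± 0.46 in log2(RPKM + 1) (n = 4 libraries; by exact permutation of signs p = 0.25, or 0.333 adjusted).

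**Figure D2:**
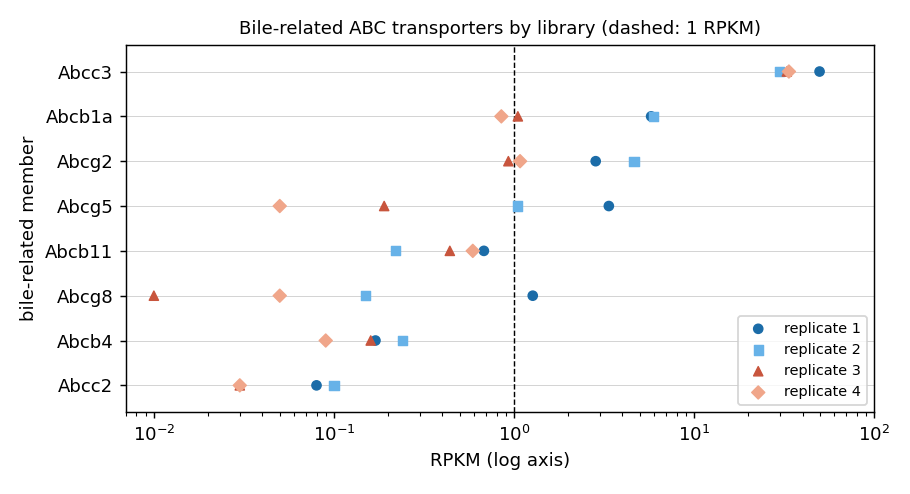
RPKM of the 8 bile-related members (rows, ordered by mean) in each of the 4 libraries (symbols) on a log axis, with a dashed line at 1 RPKM. Abcc3 sits between 29.8 and 49.7 RPKM in every library. Abcb1a, Abcg2, Abcg5 and Abcg8 straddle the line, and Abcb11, Abcb4 and Abcc2 lie under it throughout.

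The bile-related drug exporters of the apical membrane differed between libraries. Abcb1a, a P-glycoprotein that expels lipophilic drugs, on chromosome 5 from 8660092 to 8748570, was at 5.77, 5.93, 1.05 and 0.85 RPKM. Abcg2, the breast cancer resistance protein, which exports urate, porphyrins and drugs, on chromosome 6 from 58546666 to 58642445, was at 2.84, 4.63, 0.93 and 1.08 RPKM. Replicates 1 and 2 were higher than replicates 3 and 4 for both genes, without overlap. The same held for 41.2% of 11967 genes with a mean of at least 1 RPKM, and 29.7% ran the other way. Csf1r, a macrophage gene, had the same order of pairs at 16.1, 17.0, 5.14 and 5.31 RPKM, while C1qa, another gene of that list, ran the other way at 6.77, 6.26, 23.7 and 23.4 RPKM and Cd14 overlapped between the pairs. The part of macrophage RNA in these levels was not tested. Neither Abcb1a nor Abcg2 passed against 1 RPKM (limma, adjusted p = 0.0923 for Abcb1a and 0.10 for Abcg2). Of the fits that left out a library, only that without replicate 4 put Abcb1a above 1 RPKM (limma, adjusted p = 0.0396). Those without replicate 1, 2 or 3 did not (limma, adjusted p = 0.276, 0.285 and 0.0564). In log2(RPKM + 1), Abcb1a differed from the threshold by 1.78 in replicates 1 and 2 alone and by -0.038 in replicates 3 and 4 alone. This split was chosen after the values were seen, so it is no separate test.

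Abcb1b, the other mouse P-glycoprotein, lies 49576 bases downstream of Abcb1a on the same strand and was at 1.39, 1.67, 0.33 and 0.28 RPKM. It ran at a lower level with the same order of library pairs. Abcb1a exceeded it in 4 of 4 libraries by 3.04 to 4.15 times as a ratio of RPKM, or 1.01 ± 0.50 in log2(RPKM + 1) (n = 4 libraries; by exact permutation of signs p = 0.13, or 0.25 adjusted). Of the stretches of 50 bases in the reference transcript, 18.6% of those of Abcb1a and 19.6% of those of Abcb1b also occur in transcripts of other genes, mostly of each other. How the authors placed such reads is not given in the sources used here, so the separate values of the pair are uncertain. Abcb5 and Abcg3, which were grouped with these exporters by family, lay below 1 RPKM with at most 0.06 and 0.05 RPKM in any library.

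The multidrug resistance-associated proteins, full-length ABCC exporters of organic anions and nucleotides, held several of the abundant membrane transporters. Of 7, Abcc3 included and Abcc2 counted with the bile exporters, 5 lay above 1 RPKM and 2 below. These shares of 71.4% and 28.6% are near the 65.0% and 26.1% of all genes tested. Abcc4, which exports cyclic nucleotides, prostaglandins and bile acids, was at 31.3, 44.2, 38.1 and 37.4 RPKM, a mean of 37.7 ± 5.28 RPKM (SD, n = 4). Abcc1, a broad exporter of glutathione conjugates, was at 41.2, 23.7, 29.0 and 29.5 RPKM. Both were above 20 RPKM in all 4 libraries, with replicate 2 the highest for Abcc4 and the lowest for Abcc1.

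Abcc3 and Abcc4 stood at levels that did not differ beyond their spread. Their difference was -0.07 ± 0.51 in log2(RPKM + 1) (n = 4 libraries; by exact permutation of signs p = 0.75, or 0.75 adjusted), with Abcc3 higher in replicate 1 and lower in the other 3. Without replicate 2 the mean difference was 0.10, of the other sign. Abcc5, a nucleotide exporter, was at 17.5 ± 3.0 RPKM (SD, n = 4) and Abcc10 at 7.40 ± 3.12 RPKM. The Abcc10 row overlaps that of Dlk2 on the other strand, which was at 1.48 to 4.53 RPKM, and with an unstated strand setting their reads cannot be told apart where they overlap. Abcc6, the liver exporter whose loss causes ectopic calcification, was at 0.45, 0.12, 0.29 and 0.2 RPKM and Abcc12 at 0.04 RPKM or less, and both lay below 1 RPKM.

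Transporters of sterols and phospholipids were split between high and low members. Abca1, which loads cholesterol onto apolipoprotein A-I, was at 1.21, 0.25, 0.8 and 0.83 RPKM, without passing either way (limma, adjusted p = 0.209). Abcg1, which gives sterol to high-density lipoprotein, was at 15.0, 8.84, 19.6 and 20.6 RPKM and lay above 1 RPKM (limma, adjusted p = 3.4e-05). Abca1 was lower than Abcg1 in 4 of 4 libraries, by a mean difference of -3.23 ± 0.36 in log2(RPKM + 1) (n = 4 libraries; by exact permutation of signs p = 0.13, or 0.25 adjusted). As a ratio of RPKM, Abca1 was 0.0283 to 0.0807 of Abcg1. Both genes are known targets of the same sterol-sensing nuclear receptors. Of those, Nr1h2 (LXR beta) was at 56.6 ± 2.57 RPKM and Nr1h3 (LXR alpha) at 1.57 ± 0.41 RPKM (SD, n = 4), both above 1 RPKM.

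Abca7, a phospholipid transporter linked to phagocytosis, was at 27.4, 17.5, 46.5 and 43.3 RPKM. It was higher in replicates 3 and 4, as were 29.7% of genes with a mean of at least 1 RPKM. Abcg4, a brain sterol transporter related to Abcg1, was at 0.08 to 0.26 RPKM and lay below 1 RPKM. Of the transporters that act inside cells or in particular tissues, Abca3, which fills the lamellar bodies of lung with surfactant lipid, was highest at 39.9, 27.3, 49.1 and 47.9 RPKM. Replicate 2 was the lowest for Abca7, Abca3 and Abcg1. For Abca3, 14.5% of the stretches of 50 bases also occur in transcripts annotated under other genes. Abca2, a late endosomal sterol transporter, was at 17.0 ± 4.91 RPKM and Abca5, a lysosomal member, at 5.74 ± 2.57 RPKM (SD, n = 4). Abca4, the retinal transporter, and Abca12, the ceramide carrier of skin, lay below 1 RPKM at 0.05 to 0.12 and 0.01 to 0.07 RPKM.

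Of the 8 remaining ABCA genes, none lay above 1 RPKM, against 65.0% of all genes tested. 6 lay below it, 85.7% of the 7 tested against 26.1% of all genes, and Abca15 was listed at 0 throughout. At an unadjusted limma p under 0.05 the count of these ABCA genes above 1 RPKM was also 0. Abca8b was at 1.63, 1.1, 0.47 and 0.32 RPKM, without passing either way (limma, adjusted p = 0.47). The next highest, Abca14, was at 0.09, 0.3, 0.05 and 0.01 RPKM, and without replicate 2 its mean was 0.05 in place of 0.113 RPKM. The others did not exceed 0.07 RPKM in any library.

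Every ABC member grouped here as mitochondrial or lysosomal lay above 1 RPKM, 4 of 4 and 2 of 2, against 65.0% of all genes tested. Abca5, also lysosomal, was counted with the transporters that act inside cells or in particular tissues. Abcb10, an inner-membrane protein needed for haem synthesis, was at 41.4, 47.3, 49.1 and 51.4 RPKM and varied little between libraries. Abcb8, a subunit linked to mitochondrial potassium and iron handling, was at 16.6 ± 3.74 RPKM (SD, n = 4). Abcb6, a porphyrin carrier, was at 18.6, 11.5, 14.8 and 14.5 RPKM, although 90.3% of the stretches of 50 bases in its transcript also occur in a reference transcript annotated as Gm29253.

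Of 6 genes for iron-sulphur cluster and haem assembly, 6 lay above 1 RPKM, against 65.0% of all genes tested. Among the 6 was the cysteine desulphurase Nfs1 at 40.7 ± 4.72 RPKM (SD, n = 4). In the lysosome, Abcd4, needed for release of cobalamin, was at 10.7 ± 1.28 RPKM and Abcb9, a peptide carrier, at 6.22, 2.14, 7.73 and 6.69 RPKM. Replicate 2 was the lowest for Abcb9.

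The peroxisomal members import fatty acyl chains for beta-oxidation. Abcd3, which handles branched chains and bile acid intermediates, led at 53.3, 49.4, 42.7 and 37.1 RPKM. Abcd2, which carries very long chains, was at 0.5, 0.1, 0.23 and 0.18 RPKM and lay below 1 RPKM. Of 6 peroxisome partners, 6 lay above 1 RPKM, against 65.0% of all genes tested. They include Pex19, the import chaperone of peroxisomal membrane proteins, at 28.3 ± 5.65 RPKM (SD, n = 4).

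Of the soluble members, 4 of 4 lay above 1 RPKM, against 65.0% of all genes tested. Abcf1, an initiation factor partner, on chromosome 17 from 36093764 to 36106695, was at 63.4, 60.4, 66.5 and 66.0 RPKM. It had the highest mean of the members and a highest-to-lowest ratio of only 1.10. Abcf2 was at 31.2 ± 5.41 RPKM and Abcf3, related to the yeast activator of the Gcn2 kinase, at 25.1 ± 4.70 RPKM (SD, n = 4). Abce1, which splits ribosomes after termination, on chromosome 8 from 82207341 to 82235639, was at 52.0, 65.3, 22.6 and 17.5 RPKM. Replicates 1 and 2 were higher than replicates 3 and 4, as for 41.2% of genes with a mean of at least 1 RPKM. The highest Abce1 value was 3.73 times the lowest. The 4 genes made 26.4% to 32.2% of the members' summed RPKM. Of 6 translation partners, 6 lay above 1 RPKM. The release factor Etf1, which works beside Abce1, was at 44.7, 68.2, 32.9 and 28.5 RPKM, in the same order of libraries as Abce1. No other partner of that list had this order. Hbs1l, Eif2s1 and Eif2ak4 were also higher in replicates 1 and 2 than in replicates 3 and 4, and Pelo and Gcn1l1 were lower.

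**Figure D3:**
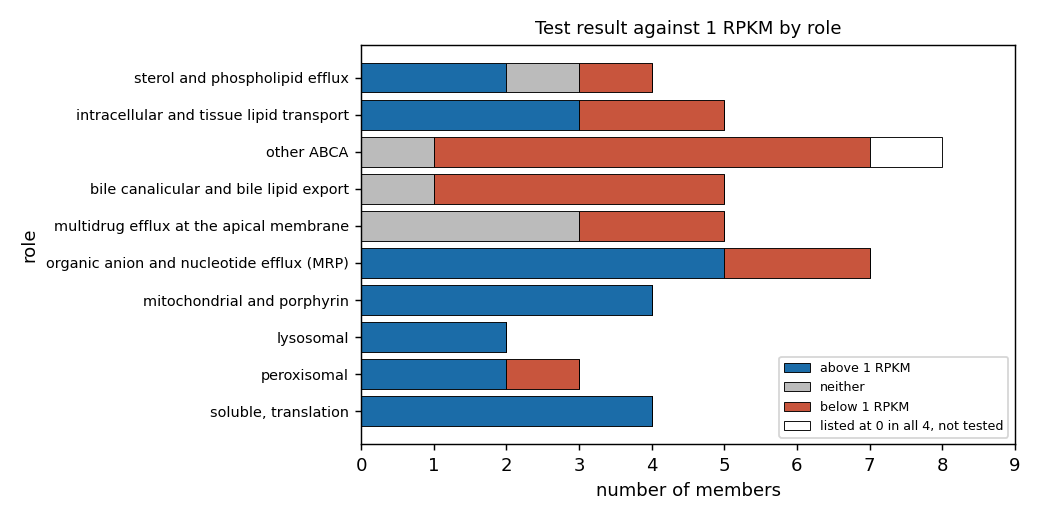
Number of members in each role (bars, 47 in all) that lay above 1 RPKM, passed in neither direction, lay below it, or were listed at 0 in all 4 libraries and not tested. Each member grouped as mitochondrial, lysosomal or soluble lay above it, and none of the 5 canalicular and bile lipid exporters did, against 65.0% of all genes tested.

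Genes that belong to or work with ABC transporters under other symbols were read from the same fit, from lists of 58 genes. The peptide transporter genes Tap1 and Tap2, ABC genes of antigen presentation, were at 13.6 ± 0.51 and 12.5 ± 0.67 RPKM (SD, n = 4). Both lay above 1 RPKM, as did 5 of 5 peptide-loading partners and 65.0% of all genes tested. Cftr, the chloride channel of the ABCC subfamily that drives biliary fluid, was at 0.18, 1.5, 0.01 and 0.02 RPKM, without passing either way (limma, adjusted p = 0.0519). Without replicate 2, Cftr lay below 1 RPKM (limma, adjusted p = 0.000152).

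Of 16 bile acid and lipid partners, 14 have a row in the table. Of these, 3 lay above 1 RPKM, 6 below, 3 passed in neither direction, and the 2 liver genes Slco1b2 and Cyp7a1 were listed at 0 in every library. The shares of the 12 tested were 25% above and 50% below, against 65.0% and 26.1% of all genes tested. The 3 above were Atp8b1, an aminophospholipid flippase of the canalicular membrane, at 55.6 ± 17.2 RPKM, the sterol-binding protein Osbp at 59.8 ± 16.9 RPKM and the bicarbonate exchanger Slc4a2 at 55.3 ± 13.6 RPKM (SD, n = 4). Nr1h4, the bile acid receptor FXR that induces Abcb11, lay below 1 RPKM at 0.29, 0.78, 0.23 and 0.59 RPKM (limma, adjusted p = 0.00611). That call was lost after rescaling to equal totals (limma, adjusted p = 0.455), against 0.5 RPKM (0.695) and in replicates 1 and 2 alone (0.0668). Slc10a2, the apical bile acid uptake carrier, was at 0.42, 2.23, 0.08 and 0.23 RPKM, without passing either way (limma, adjusted p = 0.26), and without replicate 2 it lay below 1 RPKM (limma, adjusted p = 0.00172).

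Of 10 sterol efflux partners and regulators, 8 lay above 1 RPKM and 2 below. Of 6 nuclear factors known to regulate efflux transporters, 4 lay above it and 2 passed in neither direction. Their shares above of 80% and 66.7% stand beside 65.0% of all genes tested. Nr1i2, the xenobiotic receptor PXR that regulates Abcb1a and Abcc3 in liver, was at 5.29, 5.57, 2.78 and 3.17 RPKM. Nfe2l2, the oxidative stress factor NRF2, was at 106, 73.1, 43.2 and 41.7 RPKM. Both were higher in replicates 1 and 2 than in replicates 3 and 4, as were 41.2% of all genes with a mean of at least 1 RPKM. Nr1i3, the receptor CAR of the same list, ran the other way at 0.84, 0.75, 1.89 and 1.84 RPKM, and Abcc3 overlapped between the pairs.

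The spread between libraries followed the pairs of replicates 1 and 2 against 3 and 4 in many members. Of the 25 members with a mean of at least 1 RPKM, 9 were higher in both replicates 1 and 2 than in both others (36.0%, against 41.2% of 11967 genes at that level) and 10 were lower (40%, against 29.7%). The median SD over libraries in log2(RPKM + 1) was 0.38 for these members and 0.32 for all genes at that level. Abcb1a had the largest SD of the members at 1.05, and Abcg5 at 0.94, Abce1 at 0.89 and Abcg2 at 0.74 were among the 5 largest. These 4 were higher in replicates 1 and 2. Among members higher in replicates 3 and 4 the largest differences between the means of the pairs, replicates 1 and 2 minus 3 and 4, were those of Abca7 (-1.0), Abcb9 (-0.78) and Abcg1 (-0.75).

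Base composition moved with this difference. Across the 25 members, Spearman's rho between the difference and the GC content of the reference transcript was -0.635, and across 11842 genes at that level it was -0.571. Genes share libraries and are not independent replicates, so these are descriptions. A straight-line fit across those genes on GC content and log2 length gave a fitted difference of 0.91 for Abca5, which measured 0.98. For Abce1 it gave 0.78 against 1.5 measured, for Abcb1a 0.54 against 1.81, for Abcg5 0.11 against 1.42, and for Abcc10 -0.33 against 0.82. The last 4 thus exceeded the fitted value by 0.72, 1.28, 1.31 and 1.15. Others lay under it, with residuals of -0.87 for Abcg1, -0.78 for Abca7 and -0.55 for Abca3. The same pairs differ in reads of Y-linked genes, and the part of base composition or of sex in these differences was not tested.

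**Figure D4:**
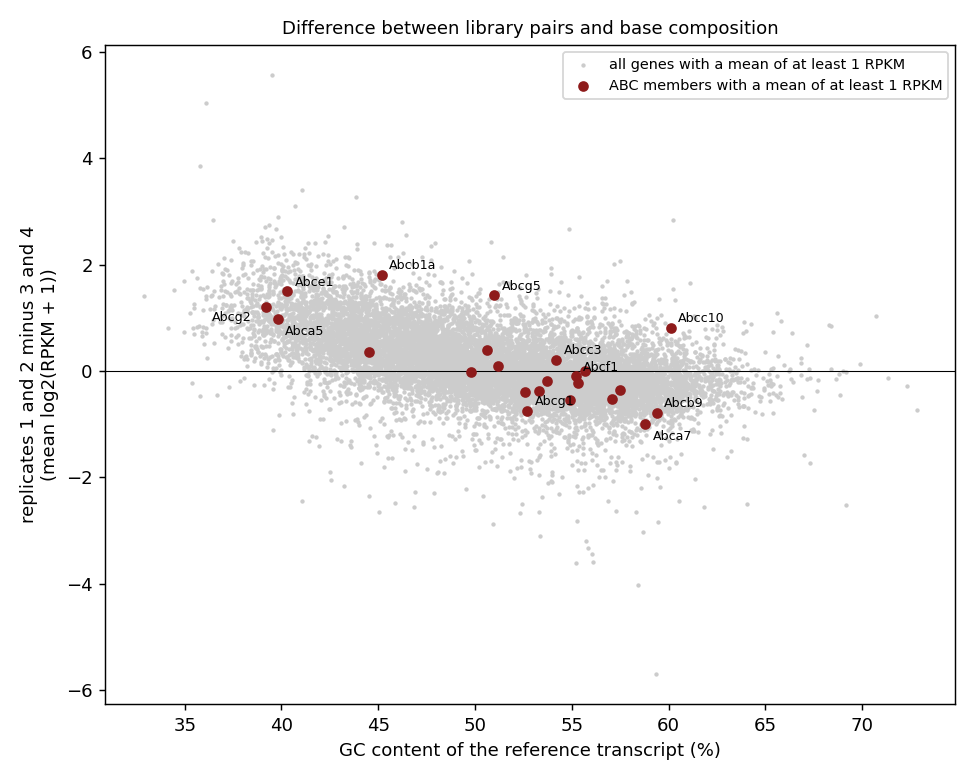
Difference in mean log2(RPKM + 1) between replicates 1 and 2 and replicates 3 and 4 (vertical axis) against GC content of the reference transcript in percent (horizontal axis) for 23 of the 25 members with a mean of at least 1 RPKM (dark points) and all genes at that level (grey). Members low in GC such as Abca5 and Abce1 lie above 0 and members high in GC such as Abca7 and Abcb9 below it, with Abcc10 and Abcg5 above the grey cloud's centre.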

How the data were processed

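RNA from 4 sorted rGBC2 libraries was sequenced after TruSeq v2 library preparation. The authors deposited 1 table of RPKM values, rounded to 2 decimals, for 20377 genes, each with 1 RefSeq transcript. CASAVA 1.8.2 and Bowtie were used on build mm9, per the submitters' processing notes. How reads were counted, by strand or where they match more than 1 gene, is not given in the sources used here. 6 per-sample columns that match no sample of this series were not used.

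The members and gene lists were chosen with earlier results of these data known. Genes were named by a fixed rule: the bile-related members, the 10 most abundant, the extremes of each subfamily, the planned pairs, the 5 most variable, and the listed partners. Dlk2, Eif2s3y, Gapdh and the markers singled out were named after their values were seen, as were the partners chosen from the lists. limma 3.58.1 in R 4.3.3 (moderated variances with a mean-variance trend) was fitted on log2(RPKM + 1), which compresses low levels, over 16919 genes, leaving out 3458 at 0 throughout. On simulated data (normal errors with the SD of each gene, the last of 3 versions, since the earlier 2 drew errors wrongly), 0% of 4898 genes set at 1 RPKM, 1% of 100 at 2 RPKM and 62% of 100 at 4 RPKM passed, so a gene near 1 RPKM often passes in neither direction.

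Depth was estimated as the number of reads at which 14 to 32 low values per library, among 981 olfactory receptor genes spanning under 1100 bases, became whole reads within rounding. Larger multiples match replicate 1 equally and would raise its depth and estimated reads in proportion. Starts in the table count from 0 and are printed from 1. Transcript length, GC content and shared stretches of 50 bases come from GENCODE M21 (GRCm38), matched by RefSeq identifier for 47 of 47 members, and estimated reads use those lengths. Some genes that the rule names, with the pairs they belong to, are not reported here one by one but stay in the fit, the adjustment and the counts. RefSeq promoters matched 36 members. Those of Abcb1a and Abcb1b were searched first and then left out, because the Abcb1a window lies far upstream of the deposited transcript. Pairs of members were compared by exact sign-flip permutation over the 4 libraries. Alternatives were pseudocount, filter, scaling, variance trend, threshold and libraries left out.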

Additional observations from a re-analysis of the deposited data

Results flagged for a closer look

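For 7 of 69 genes and differences checked, 1 library lay far from the other 3, relative to the range of the 4. For independent, normally distributed values chance alone does this in about 5% of groups of 4. Here the libraries fall in pairs and several flagged values rest on a few reads, so that rate may not hold. For Abcg8, replicate 1 read 1.27 RPKM and no other library exceeded 0.15 RPKM. Abca17 reached 0.07 RPKM and Abca13 0.02 RPKM in replicate 1, an estimated 8.81 and 7.75 reads. Abca12 reached 0.07 RPKM and Abcb5 0.06 RPKM in replicate 2, an estimated 14.1 and 5.14 reads. Of the partners, Cftr was at 1.5 RPKM and Slc10a2 at 2.23 RPKM in replicate 2, above every other library.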

How the results depend on the processing

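The count of members above 1 RPKM was 21 to 24 under the 13 alternatives tried, and 22 to 23 with 1 library left out. The count below was 16 to 21, and 17 with any 1 library left out, except that keeping only genes with a mean of at least 0.1 RPKM left 7, because only 35 members were then tested. Of 46 members, 37 kept their direction and their side of the threshold under every alternative that gave a value for them. The filter at 0.1 RPKM left 35 of 46, and members at 0 in all libraries kept gave no value there (Abca13 without replicate 1, and Abca13, Abca8a and Abcg3 in replicates 3 and 4 alone). Those that did not include Abca1, Abca8b, Abcb1a, Abcb1b, Abcb11, Abcg2, Abcg5 and Abcg8. Alternatives restricted to 1 pair of libraries were chosen after seeing the data.

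With a pseudocount of 0.1, the median member level on the log2 scale moved to 0.78, and the median difference of bile-related from other members to -2.90, because that scale spreads low levels. Rescaling each library to 1000000 RPKM in sum raises all values, since they sum to 481676 to 581805 as deposited. It turned the difference from the threshold positive for Abcg5 (0.28), Abcb1b (0.32), Abca8b (0.32) and Abca1 (0.23). A threshold of 0.5 RPKM did the same for Abcg5 (0.28), Abcb1b (0.28), Abca8b (0.27), Abca1 (0.21) and Slc10a2 (0.067). With 1 library left out, the difference ranged from -0.55 to 0.135 for Abcg5, from -0.325 to 0.028 for Abcb1b and from -0.324 to 0.0071 for Abca8b. It was positive without replicate 3 or 4 for the first 2 (0.074 and 0.135, 0.01 and 0.028) and without replicate 4 for Abca8b. In replicates 1 and 2 alone, Abcg5 (0.58), Abcb1b (0.34), Abca8b (0.23) and Slc10a2 (0.10) turned positive, and in replicates 3 and 4 alone Abcb1a turned to -0.038. Among the pairs, Abcc3 minus Abcc4 ranged from -0.305 to 0.097 with 1 library left out, positive without replicate 2, and was 0.051 in replicates 1 and 2 alone. The cause of these changes was not tested. No paired analysis was possible because the series has 1 group. At these depths a level of a few hundredths of 1 RPKM rests on a few reads.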

Other observations

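Some neighbouring ABC genes stood at different levels and others close together, and other gene pairs were not compared. On chromosome 11, 5 ABCA genes follow each other on the minus strand in the order Abca8b, Abca8a, Abca9, Abca6 and Abca5. The outer 2, Abca8b and Abca5, ranged from 0.32 to 1.63 RPKM and from 3.12 to 8.27 RPKM, and Abca8b passed in neither direction. The 3 between them, Abca8a, Abca9 and Abca6, did not exceed 0.05 RPKM in any library. On chromosome 17, Abca3 at 41.1 ± 10.0 RPKM (SD, n = 4) lies 4793 bases from Abca17, which reached 0.07 RPKM at most. On chromosome 3, Abcd3 at 45.6 ± 7.16 RPKM and Abca4 at 0.08 ± 0.036 RPKM lie 229244 bases apart. Abcb4, at 0.165 ± 0.061 RPKM, lies 27406 bases downstream of Abcb1b on chromosome 5. Abca8a and Abca9, Abca9 and Abca6, and on chromosome 7 Abca14 and Abca15 were all low, at 0.3 RPKM or less in every library.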
